A study of Schizosaccharomyces pombe with 2 samples.

Results

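The fission yeast genome was divided into 10 kb bins, and the bins described here are those that overlap no convergent gene pair. A convergent pair is a pair of neighbouring protein-coding genes that are transcribed towards each other, the left gene on the plus strand and the right gene on the minus strand, and it spans the stretch from the left gene's 3′ end to the right gene's 3′ end. The annotation gave 5113 protein-coding genes and 1393 such pairs, and in 836 of them the 3′ ends overlapped. Of the 1218 bins with contact values, 213 (17.5%) held no pair, 601 held 1 pair, 360 held 2 and 44 held 3 or more. The pair-free bins lay on all 3 nuclear chromosomes, 91 on chromosome I, 77 on II and 45 on III.

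The map came from Schizosaccharomyces pombe cells of the strain sap1-1, which carries a mutant allele of sap1, the gene of an essential DNA-binding protein. Cells grew logarithmically in rich medium at 26 °C, were moved to 33 °C for 6 hours and were fixed in 3% formaldehyde, and the chromatin was cut with HindIII for Hi-C, which counts ligation products between pairs of loci. The 2 samples listed share this strain and treatment, and no control strain is among them. The deposited values form 1 map, the name inside the file is tagged as replicate 1, and whether both samples entered it is not stated, so there is no replicate error and no test between conditions, and no value below says what the sap1-1 allele does. The spread over the 3 chromosomes is given in place of a replicate error, and intervals on reads or on shares of bins cover counting error only.

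In fission yeast, transcription is known to move the ring-shaped cohesin complex along genes, and cohesin collects where convergent genes end. Cohesin also folds chromosome arms into small domains in which loci meet each other more often than they meet loci beyond the domain's border. Bins without a convergent pair lack the arrangement at which cohesin is known to collect, and how often they are domain borders is the first question here. Cohesin itself was not measured in this map.

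Between 7686 and 98119 reads fell on a bin, with a median of 58761.5, and 37526864 whole reads were recovered from the corrected values, 99.9% of the total in the file header. The pair-free bins had a median of 56542 reads, against 58111 in bins with 1 pair and 59844 in bins with 2 or more. In all, 40 bins are blank and were not used. Arm bins are those no nearer than 200 kb to the chromosome's ends and 100 kb to the middle of its centromere, and 180 of the 1066 arm bins held no pair.

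The sequences that follow come from gaps in or beside 3 of the pair-free bins that were borders all the same, and each shows only a part of its gap. Each sequence is the middle 100 bases of a gap between protein-coding genes, taken from the RefSeq assembly on the plus strand and overlapped by no protein-coding gene. In the order printed, the gaps are 6175, 237, 134, 851 and 282 bp long. Capitals mark runs of at least 6 A or 6 T. For the bin chrII:3620001-3630000, the head-to-head gap between rps1801, a ribosomal protein gene, and mbx2, a gene of a MADS-box transcription factor, lies inside the bin (chrII:3623502-3623601), and the nearest tail-to-tail gap, between tad2 and rps1801 (chrII:3619610-3619709), belongs to a pair that ends 223 bp outside it. For the bin of the silent mating-type cassette mat3, chrII:2130001-2140000, the gap between the divergent genes mat3-Mi and mat3-Mc is shown (chrII:2132732-2132831). For the bin chrII:3820001-3830000, the head-to-head gap between psg1 and spo4 (chrII:3826703-3826802) is set beside the tail-to-tail gap between rtc3 and git1 (chrII:3830994-3831093), whose pair begins 902 bp outside the bin.
rps1801-mbx2, head-to-head: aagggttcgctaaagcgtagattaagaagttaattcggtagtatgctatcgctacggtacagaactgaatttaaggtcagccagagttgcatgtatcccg
tad2-rps1801, tail-to-tail: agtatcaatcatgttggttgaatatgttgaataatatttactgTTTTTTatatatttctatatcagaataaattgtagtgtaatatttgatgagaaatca
mat3-Mi-mat3-Mc, head-to-head: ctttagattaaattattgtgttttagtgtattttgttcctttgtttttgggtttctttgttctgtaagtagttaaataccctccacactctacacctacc
psg1-spo4, head-to-head: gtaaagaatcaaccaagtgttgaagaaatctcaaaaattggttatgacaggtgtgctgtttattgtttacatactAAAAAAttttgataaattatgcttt
rtc3-git1, tail-to-tail: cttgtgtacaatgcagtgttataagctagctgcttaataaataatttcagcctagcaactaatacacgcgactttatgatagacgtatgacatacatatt
Of these 5 windows, the tail-to-tail gap beside rps1801 and the head-to-head gap of psg1 and spo4 held a run of AAAAAA or TTTTTT, and the other 3 held none. Over the whole genome such a run was found in the middle 100 bases of 33.6% of the 369 tail-to-tail gaps of at least 100 bp, of 33.7% of the 1163 head-to-head gaps and of 33.1% of the tandem gaps, and in 24.7% of all 100-base tiles. The search letters are their own complements, so both strands were read at once and overlapping runs were counted as 1 run. The HindIII site AAGCTT, which reads the same on both strands, was in 2.98%, 4.30% and 4.71% of the tail-to-tail, head-to-head and tandem windows and in 5.11% of tiles. For the runs of A or T the 3 kinds of gap had near-equal shares.

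Bins without a convergent pair were seldom domain borders. A border was defined as a minimum of the insulation score, at least 0.1 below the higher of its flanking maxima. Bins without a score were passed over when minima and maxima were sought. The insulation score is the log2 contact of the 5 bins on the left with the 5 bins on the right of a bin, relative to the mean contact at the same separations, so a low score means little contact across the bin. Of the 205 pair-free bins with a score, 11 were borders (5.37%, 95% exact binomial interval 2.71 to 9.40), where 17.1% of all 1181 scored bins were borders. The share was 17.6% in bins with 1 pair (102 of 581, 14.5 to 20.9), 19.0% in bins with 2 pairs (67 of 352, 15.1 to 23.5) and 51.2% in bins with 3 or more (22 of 43, 35.5 to 66.7). Over all bins with at least 1 pair it was 19.6%. On recovered reads without the authors' correction the share was 16.6% in pair-free bins (34 of 205). In bins with at least 1 pair it was then 31.5% (307 of 976). The order was kept and both shares were higher, so the level of either share depends on the correction. In proportion to the other bins, the pair-free share was then less low than with the correction.

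The lower share was seen on every chromosome. On chromosome I, 6.74% of the pair-free bins were borders, against 19.3% of the bins with at least 1 pair. On chromosome II the shares were 5.33% and 20.2%, and on chromosome III 2.44% and 19.0%. The gap between the classes was wider than the spread of either class over the 3 chromosomes (SD 2.19 percentage points for pair-free bins and 0.645 for the others, n = 3). Among arm bins alone, 8 of 180 pair-free bins (4.44%) and 176 of 886 other bins (19.9%) were borders. Nearer to the ends and centromeres the pair-free bins did not separate from bins with 1 pair. There, 3 of 25 pair-free bins (interval 2.55% to 31.2%) and 7 of 55 bins with 1 pair (12.7%) were borders. The median score was 0.10 and 0.14. With 2 or more pairs, 8 of 35 such bins were borders (22.9%, 10.4 to 40.1), and the median score was 0.02. This share was higher and this score lower than in pair-free bins, as in the arms, but the intervals of the shares overlapped widely.

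**Figure D1:**
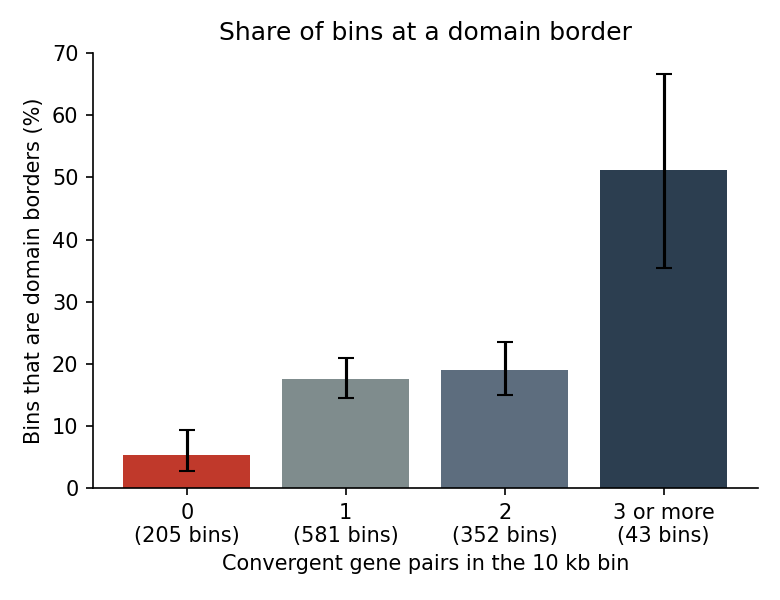
Share of 10 kb bins that are domain borders (percent, vertical axis) by the number of convergent gene pairs in the bin (horizontal axis), with the number of scored bins in brackets. Bars give the share in the 1 deposited map and lines the 95% exact binomial interval, which covers counting error only. The share is 5.37% without a pair and 51.2% with 3 or more.

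Where a pair-free bin was a border, the border was about as deep as elsewhere. The median depth was 0.23 for the 11 pair-free borders (interquartile range 0.17 to 0.37), against 0.24 with 1 pair, 0.27 with 2 and 0.27 with 3 or more. The share of pair-free bins was lowest at the border itself and higher at all distances from it. Of the 202 border bins, 11 (5.45%) held no pair, while 90 of the 386 bins at 10 kb from the nearest border did (23.3%). At 20, 30 and 40 kb the share was 17.4%, 14.9% and 20.5%, and at 50 kb or more 23.5% (12 of 51). Seen from the pair-free arm bins, 25.4% of the bins 10 kb to the left and 24.2% of those 10 kb to the right were borders, against 4.44% at the bin itself. A border is a minimum over neighbouring bins, so bins beside each other cannot both be one, and the 2 neighbours are not independent of the bin between them.

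**Figure D2:**
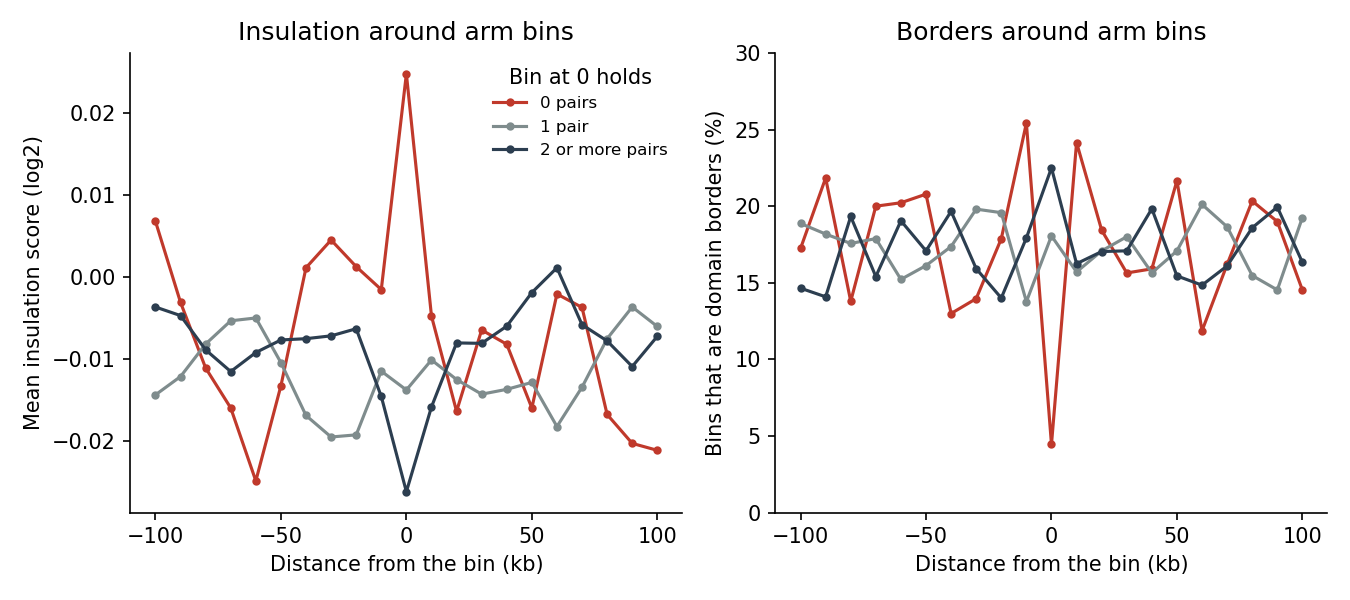
Mean insulation score (log2, left) and share of bins that are borders (percent, right) at distances of up to 100 kb from arm bins with 0, 1, or 2 or more convergent pairs. Lines are means or shares over bins of the 1 map. Around pair-free bins the border share is 4.44% at the bin and 25.4% and 24.2% in the bins on its left and right.

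The insulation score gave the same order in smaller steps. Its median was 0.03 in pair-free bins (interquartile range -0.05 to 0.13), -0.0025 with 1 pair, -0.01 with 2 and -0.08 with 3 or more. A score above 0 was found in 122 of the 205 pair-free bins (59.5%), and 48.9% of all scored bins were above 0. The share was 48.7% with 1 pair, 45.5% with 2 and 27.9% with 3 or more. The median of pair-free bins lay above that of bins with 1 pair by 0.02 on chromosome I, 0.05 on II and 0.04 on III, and above that of bins with 2 or more by 0.02, 0.07 and 0.07. These steps are small beside the spread between single bins, whose SD was 0.15 among pair-free bins and 0.14 among bins with 1 pair, so the classes overlapped widely.

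Contact across a single bin, measured between its left and right neighbours over the mean at 20 kb, was highest where no pair lay between. The median ratio was 1.04 over 200 pair-free bins (interquartile range 0.957 to 1.13), 0.987 with 1 pair, 0.973 with 2 and 0.899 with 3 or more. On the log2 scale the pair-free bins were above bins with 1 pair by 0.09 on chromosome I, 0.05 on II and 0.11 on III. A ratio under 0.8 was found for 5 pair-free bins (2.5%), against 6.94% of all 1182 bins, 7.34% of bins with 1 pair and 14.0% of bins with 3 or more. In arms it was 2 of 175 pair-free bins (1.14%) against 6.77% of all arm bins, and outside them 3 of 25 against 8.21% of all such bins. The 5 were the mat3 bin, the bins of aes1, of abc3 and mug14, and of isp3 and hhy1 near chromosome ends, and the bin of ubc4 and rpn3, genes of a ubiquitin-conjugating enzyme and a proteasome subunit, with a ratio of 0.790.

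**Figure D3:**
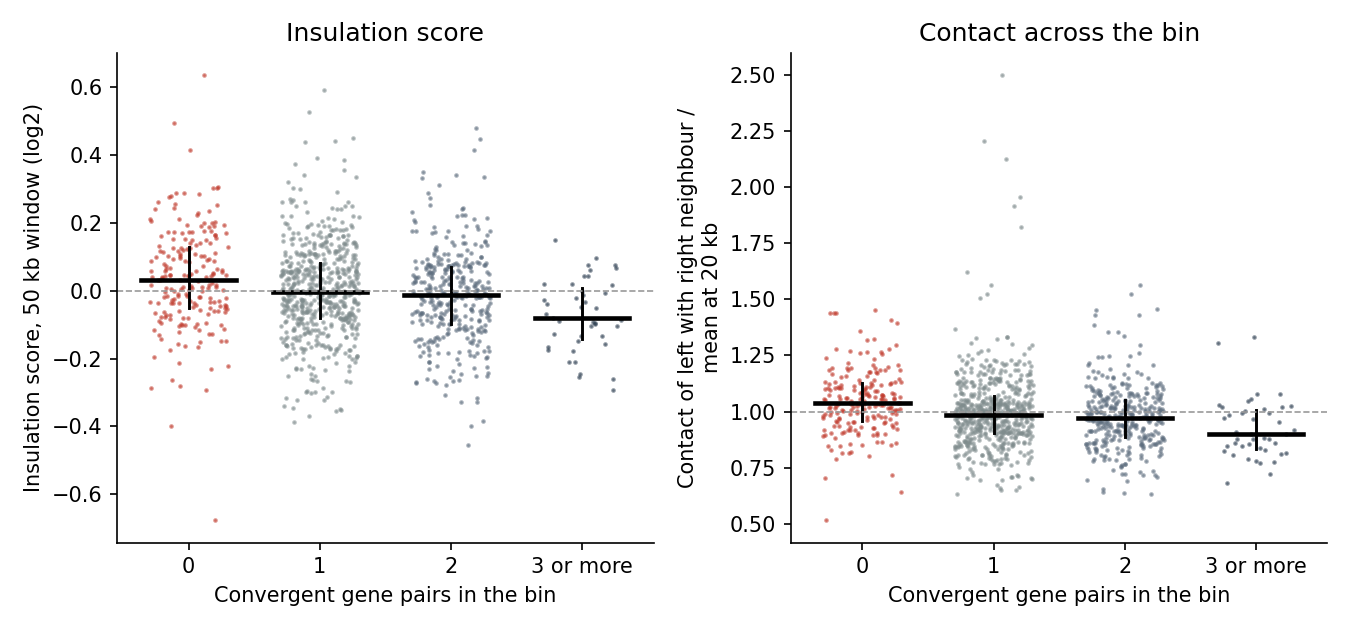
Insulation score (log2, left) and contact of the left with the right neighbour over the mean at 20 kb (right) for every bin with a value, by the number of convergent pairs in the bin. Points are bins of the 1 map, the thick line is the median and the thin line the interquartile range. The medians are 0.03 and 1.04 without a pair, and -0.08 and 0.899 with 3 or more, and the clouds overlap.

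Within arms, contact was also set against the count of pairs between 2 bins, at 20 kb and over longer spans. At 20 kb only 1 bin lies between, so the 20 kb values are the contact across given above, not a second measurement. At 20 kb apart, bins with no pair in between were in contact at 1.04 times the mean (195 bin pairs), and those with 1, 2 and 3 pairs between at 0.985, 0.964 and 0.903. At 30 kb the ratio was 1.13 over the 16 bin pairs with none between, of which 2 were under 1, and 1.01, 0.997, 0.966, 0.930 and 0.888 with 1 to 5 between. At 40 kb only 2 bin pairs had none between, and the ratio was 1.08 with 1 between. With 2 to 6 between it was 0.994, 0.995, 0.985, 0.941 and 0.918, so it hardly changed from 2 to 4. At 60 kb it fell from 1.03 with 3 between to 0.948 with 7. With 8, 9 and 10 between it was 0.955, 0.976 and 1.03 (85, 22 and 7 bin pairs), so the fall did not go on. By chromosome, the 20 kb ratio with none between was 1.05 on I, 1.03 on II and 1.04 on III, and with 1 between 0.979, 0.983 and 1.00. At 30 kb with none between it spread more widely, 1.25 on I, 1.03 on II and 1.16 on III, over 6, 7 and 3 bin pairs. Spearman's rho between the ratio and the number of pairs between was -0.21 at 20 kb (1046 bin pairs), -0.20 at 30 kb and -0.14 at 60 kb, as a description of bin pairs that share bins and reads.

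**Figure D4:**
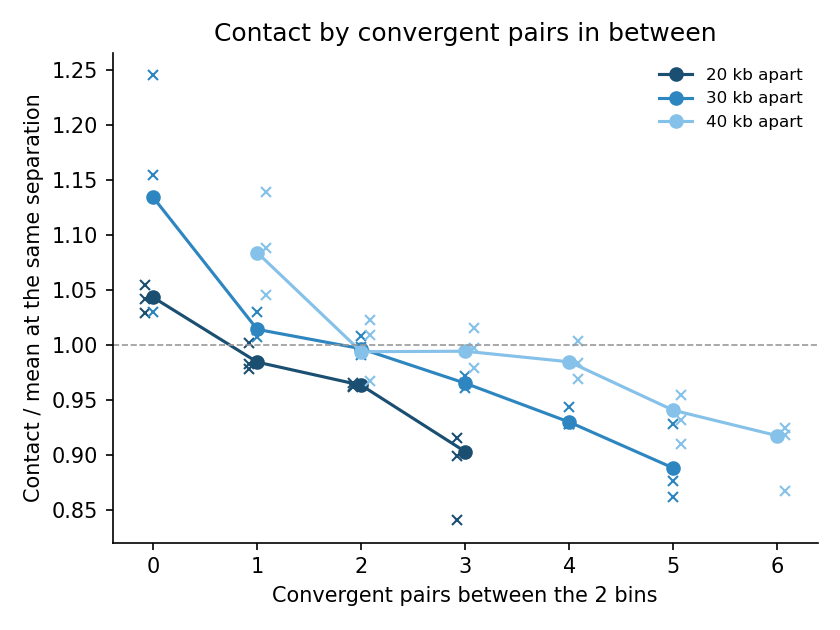
Contact of 2 arm bins over the mean at the same separation (vertical axis) by the number of convergent pairs between them (horizontal axis), for bins 20, 30 and 40 kb apart. Dots joined by lines are means over at least 10 bin pairs and crosses are the means on each of the 3 chromosomes, some from fewer bin pairs. At 30 kb the mean is 1.13 with no pair between and 0.888 with 5.

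What else separates pair-free bins from the rest was set out from the annotation. They held fewer genes, which counting pairs brings about in part, since a pair needs genes at its ends. Their median was 4 protein-coding genes, against 5 with 1 pair, 6 with 2 and 7 with 3 or more. Their genes ran in the same direction more often: in 88 pair-free bins (41.3%) all genes lay on 1 strand, against 13 bins with 1 pair (2.16%) and none with 2, which the rule brings about in part. The longest gene in the bin had a median length of 3723 bp, against 3494, 3414.5 and 3139.5 bp with 1, 2 and 3 or more pairs, and a gene of at least 5 kb touched 54 pair-free bins (25.4%) and 17.8% of bins with 1 pair. AT content was 63.6%, against 64.0%, 64.1% and 64.2%. The median number of HindIII sites was 5 in bins with 0, 1, and 3 or more pairs and 6 in bins with 2. tRNA genes, at which transcription by RNA polymerase III and condensin binding are known, were in 8.92% of pair-free bins and 8.32% of bins with 1 pair, and retrotransposon long terminal repeats in 15.5% of both.

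Within bins of equal gene number the border share of pair-free bins was again the lower one. With 3 genes in the bin it was 4.35% (2 of 46), against 23.0% with 1 pair. With 4 genes it was 7.46% (5 of 67) against 18.6%, with 5 genes 6.82% (3 of 44) against 14.7%, and with 6 genes 0 of 17 against 18.4%. Within the quartiles of bins by reads it was 3.64%, 5.88%, 6.12% and 6.00% from the fewest reads to the most, against 18.7%, 13.8%, 16.6% and 21.4% with 1 pair. With a tRNA gene it was 1 of 15 (6.67%), against 29.8% with 1 pair. Over all scored bins, the border share was 24.1%, 15.1%, 16.3% and 21.6% with 0, 1, 2 and 3 or more divergent pairs in the bin, and 21.6%, 18.8%, 14.0%, 17.3% and 18.6% with 0, 1, 2, 3 and 4 or more tandem pairs. The median score was -0.015, -0.0027, -0.0019 and 0.010 by divergent pairs and -0.027, -0.015, 0.0039, 0.0085 and 0.013 by tandem pairs. Over the 1181 single bins, Spearman's rho between score and pair number was 0.0019 for divergent, 0.084 for tandem and -0.15 for convergent pairs. The rise of the medians with divergent pairs was thus no trend over bins.

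Pair-free bins differed among themselves by how far the nearest convergent pair lay. In the 54 scored bins at least 3 kb from any pair, the median score was 0.09 and none was a border (0 of 54, upper limit of the 95% interval 6.60%). Between 1500 and 3000 bp the median score was 0.03 with 3 borders of 50, and between 500 and 1500 bp 0.01 with 6 of 64. Just inside the rule, with a pair within 500 bp beyond the bin, the median score was -0.0014 and 2 of 37 bins were borders (5.41%, 0.661 to 18.2). Just outside it lay 72 scored bins with 1 pair whose midpoint was within 500 bp of the bin's edge or beyond. Of these, 7 were borders (9.72%, 3.999 to 19.01), and this interval overlapped widely with that of the bins just inside. Their median score was -0.00041, no lower than just inside, so the score showed no step at the rule's edge. Their contact across was 0.957, against 1.02 in the bins just inside. With the pair within 1500 bp of the bin's middle, 18.6% were borders.

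Pair-free bins also differed by the pairs in the flanking bins and by the genes they hold. Where the 2 flanking bins held 1 pair in all, the median score was 0.11 and 0 of 22 bins were borders. With 2, 3, 4 and 5 flanking pairs the median score was 0.03, 0.04, -0.02 and -0.04. Borders were then 3 of 66, 5 of 85, 3 of 24 and 0 of 6 bins, so neither value changed steadily. Contact across was 1.05, 1.03, 1.05, 1.04 and 1.03 with 1 to 5 flanking pairs. Pair-free bins with a gene of at least 5 kb had a contact across of 1.07, against 1.02 in those without. With a divergent pair inside, 10 of 147 were borders and the contact across was 1.06, and without one 1 of 58 and 1.01. The 12 pair-free bins with a ribosomal protein gene (5.63% of the 213, against 9.65% of bins with 1 pair) had scores from -0.29 to 0.29. Their median score was -0.06, with 5 above 0, against a median of 0.03 in all pair-free bins. Contact across them ran from 0.854 to 1.39 (11 bins), with a median of 1.10 against 1.04.

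The 8 arm borders without a pair were varied in depth and setting. The deepest was the bin of dlc2, a dynein light chain gene, and dph4, a diphthamide synthesis gene, on chromosome I (chrI:3890001-3900000), with a score of -0.40 and a depth of 0.75. Its left neighbour, which holds 3 convergent pairs, is blank, so contact across the border bin has no value. The bin on the far side of the blank one holds 1 pair and scored -0.37, nearly as low. Whether the minimum lies in the pair-free bin or in the blank one cannot be told. The border bin lies 124 kb from the centromere midpoint. The mat3 bin, which holds the silent M cassette genes mat3-Mc and mat3-Mi, had the lowest score of all arm bins, -0.68, and a depth of 0.64. Its neighbours met each other at 0.516 times the mean (1524 reads, 95% Poisson interval 0.491 to 0.543).

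Next came the bin of mbx2 and rps1801, with a score of -0.23, a depth of 0.37 and a contact across of 0.854. This bin has 0 HindIII sites and 31636 reads, and the convergent pair shown above ends 223 bp outside it. For the bin of hmg1, the gene of HMG-CoA reductase of sterol synthesis, and nup211, a nucleoporin gene (chrIII:1560001-1570000), the depth was 0.26 and the contact across 0.814. For the bin of spt4, a transcription elongation factor gene, and psg1 the depth was 0.23 and the contact across 0.803. At all 3 the contact across lay below the median of each class of bins.

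At 3 other arm borders the bin's own neighbours met each other above the mean. The bin of vma5, a vacuolar proton pump subunit gene, and cch1, a calcium channel gene (chrI:2720001-2730000), had a depth of 0.22 and a contact across of 1.08. The bin of cdc12, the formin gene of cell division, and mso1 (chrI:280001-290000) had a depth of 0.18 and 1.03. The bin of cwf11 and gta1 (chrII:920001-930000), which tor2, the TORC1 kinase gene, also enters, had a depth of 0.14 and 1.07, and it had the most reads of all bins, 98119. Outside the arms, 3 more pair-free bins of chromosome I were borders, those of isp3 and hhy1, of spc34 and atm1, and of sgo2, the shugoshin gene, and ppk3, with contact across of 0.642, 0.865 and 0.974. The sgo2 bin scored -0.0089, and the scores beside it peaked at only 0.057 and 0.044 before the unscored bins around the centromere. Its depth of 0.36 was reached only past those unscored bins.

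**Figure D5:**
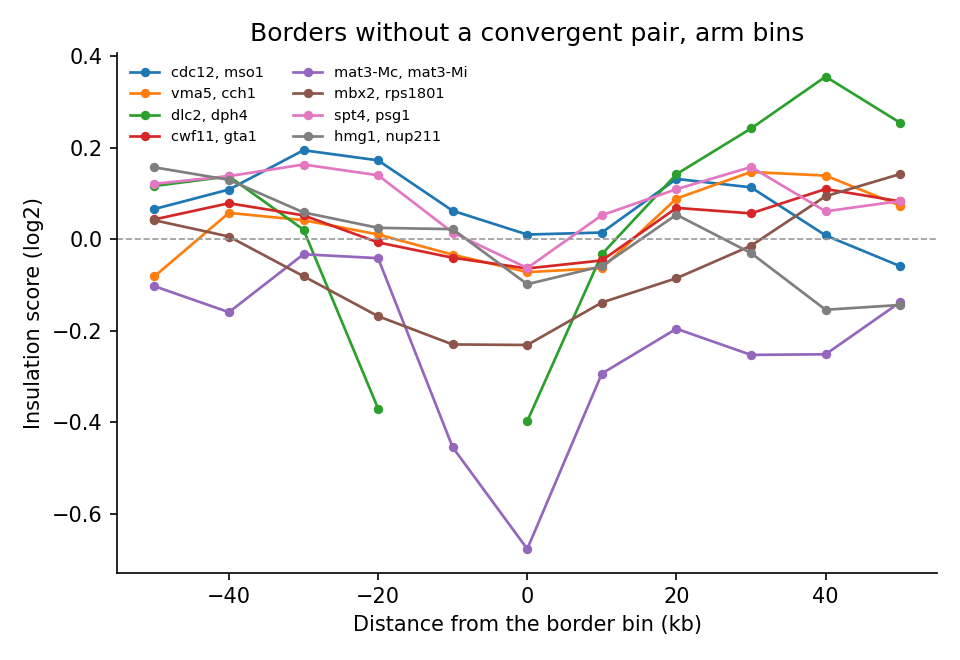
Insulation score (log2, vertical axis) around each of the 8 arm borders without a convergent pair, by distance from the border bin (kb, horizontal axis), each line named by 2 genes of the bin. The mat3 bin is lowest, at -0.68, and the line of dlc2 and dph4 has a gap at a blank bin. The other 6 lie between -0.23 and 0.01 at the border.

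Of the 5 highest scores among pair-free arm bins, 4 were on chromosome II. The adjacent bins of tre1 and rsn1 (0.31) and of def1, a gene acting in RNA polymerase II degradation, and gpd3, a glycolytic gene (0.29), lie side by side at chrII:560001-580000. The bins of dps1, a gene of ubiquinone side chain synthesis, and knk1 (0.30) and its right neighbour (0.29) follow at chrII:680001-700000. The bin of cdr2, a kinase gene of cell size control, and pas1, a cyclin gene, on chromosome I had 0.28. Contact across these 5 bins was 1.14, 1.03, 1.07, 1.18 and 0.956 in the order named, so a high score over the 50 kb window did not always go with high contact over the bin itself.

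Most pair-free bins stood alone. There were 181 single bins, 14 runs of 2 and 1 run of 4. The run of 4 lies at chrII:680001-720000 in a stretch of 41.1 kb without a convergent pair (chrII:679904-720989), the longest that does not span a centromere, where the median stretch is 6.99 kb. It holds the 12.2 kb glycoprotein gene SPBPJ4664.02, cop1, mfm3, a mating pheromone gene, ubc4 and rpn3. Its mean score was 0.17, the scores of its 4 bins reached from -0.08 to 0.30, and the bins flanking it met each other at 1.17 times the mean at that separation (1487 reads). On chromosome III, the bins flanking the runs of 2 met at 1.03, 1.08, 1.09 and 1.35 times the mean. The highest value was at the run of tel1, the ATM kinase gene, and rpm1 (chrIII:1270001-1290000, 2006 reads). On chromosome I, the values at runs of 2 that had one were 1.15, 1.24, 1.29 and 1.31. The highest was at the run of sck2 and snt1 (chrI:5040001-5060000, 1861 reads). The lowest such value of a run was at the one that starts at mat3, 0.557 (1206 reads).

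Some very long genes lay over pair-free bins. Of the 32 genes of at least 7 kb, 16 touched a pair-free bin, among them sib1, the ferrichrome synthetase gene of iron uptake (15.2 kb), mdn1, the midasin gene of ribosome assembly (14.4 kb), and dhc1, the dynein heavy chain gene (12.6 kb). In 12 of the 16 the score of such a bin, the higher one where 2 were touched, was above 0, which raises the count beside the 59.5% of all pair-free bins above 0. Scores were 0.19 for tra2, 0.20 for vps1302 and 0.21 for tel1, and below 0 for sib1 (-0.10) and sip1 (-0.12). Of the 16, tor2 was the gene that entered a pair-free border.

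The contact of pair-free bins themselves with their surroundings was slightly low at short range. Over 20 kb the median ratio to the mean was 0.959, against 0.994 in bins with 1 pair and 0.993 with 2 or more. Over 30 kb it was 0.939, against 0.980 and 0.990. At 100 kb the values were 0.990, 0.984 and 0.994, and at 500 kb 1.02, 1.01 and 0.967. The interquartile ranges overlapped at every separation, from 0.875 to 1.03 for pair-free bins at 20 kb and from 0.912 to 1.08 for bins with 1 pair. Low contact of the bin and high contact across it thus stood side by side.

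Contact of pair-free bins with each other was near the mean within arms at 20 to 200 kb. The mean ratio was 0.994 for 507 pairs of pair-free bins, 0.989 for mixed pairs and 0.989 for pairs of other bins. At 200 to 1000 kb it was 1.05, 1.02 and 0.992. Between chromosomes, relative to bin pairs with like distances from their centromeres (classes of 100 kb), it was 1.05 (95% Poisson interval 1.04 to 1.05), 1.02 and 0.991. Without the authors' correction the between-chromosome ratio of pair-free over other bin pairs was 1.00, against 1.06 with it. The highest ratio among pair-free bins of different chromosomes with at least 20 reads was 4.02, between the bin of ldb1 and sqs1 on II and that of cbf12 and aro2 on III, and it rests on 22 reads (2.52 to 6.09). The read filter and the choice of the highest ratio used the same reads, so this interval does not allow for the selection. A bin pair with few expected reads passes the filter only if its ratio is high. The next 4 ratios were picked in the same way and lay between 2.65 and 2.74. They were for rtn1 and dbl7 with inv1 and bdf1, hub1 and pep12 with gsf2, sls1 and gid10 with wwm2 and wwm3, and mug157 and ppr5 with rad13 and fma1.

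In fission yeast nuclei the centromeres cluster, and so do the chromosome ends, both at the nuclear periphery. Contact of a bin with those of other chromosomes was set against the running median within 100 kb on the same arm. Contact of pair-free arm bins with the ends of chromosomes I and II had a median ratio of 1.05, against 1.00 with 1 pair and 1.00 with 2 or more. On the log2 scale this is 0.069, and it was 0.00 without the authors' correction, 0.034 with the 5% of bins lowest in reads left out and 0.041 with wider end windows. It was above the running median in 104 of 180 pair-free bins, where 48.7% of all arm bins were. At least 2 times the running median was reached by 3 pair-free bins, of 12 arm bins in all (1.13%). Contact with centromeres had a median of 1.01, against 1.00 and 0.996, with 91 of 180 above the running median (47.9% of all arm bins) and 3 of the 5 arm bins at 2 times or more (0.469%).

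The highest of these were again at the silent mating-type region. For the mat3 bin the contact with ends was 6.50 times the running median (673 reads, 6.02 to 7.01) and that with centromeres 2.51 times (395 reads). The neighbouring bin of tam9 and rpl401 had 2.86 and 2.34 times. It also had the third lowest score among pair-free arm bins, -0.29, with a contact across of 1.39. The bin of rad13, a DNA repair nuclease gene, and fma1 followed for the ends at 2.81 (256 reads), then those of mug89 and nrs1 (1.93) and of gsf1 and slm9 (1.81). For the centromeres, the bin of ceg1, the mRNA capping gene, and atf21 had 2.01 (664 reads), that of atd3 and pex32 1.99, and that of dfp1 and arp6 1.80. These 3 bins lie 103, 101 and 111 kb from their own centromere midpoint, at the inner edge of the arm bins, where the running median is taken almost wholly over bins farther from the centromere. The other pair-free arm bins among the 5 lowest scores, those of dlc2 and dph4 (-0.40), of gnr1 and tyw1 (-0.29) and of gsf2 (-0.26), met the ends at 0.956, 1.24 and 1.10 times the running median.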

How the data were processed

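The authors' deposited values are contact signal for pairs of 10 kb bins, iteratively corrected so that every bin has the same sum, per the file headers and the values. The submitters' processing notes name Bowtie2 2.1.0 and the build ASM294v2. The file's bins end where the 3 nuclear chromosomes of the RefSeq assembly used for genes and sequences end (its header names a later version). The file's single matrix was treated as 1 sample. Correction factors and whole reads were recovered from the steps of low values (100% of values under 30 reads were whole within 0.05, 99.9997% of all) and gave the Poisson intervals.

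Python 3.11.15, NumPy 2.4.6, SciPy 1.17.1 and pandas 2.3.3 were used. The score summed contact over the 25 bin pairs of the window, at least 15 with values, over the sum expected within arms, and was centred on each chromosome. Recovery and border calling were tested on simulated maps. No test between groups was made, since there is 1 map.

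Genes named are, in arm bins without a pair, all borders, the 5 highest and 5 lowest scores, runs, the 5 highest ratios with ends and with centromeres, and the 5 highest bin pairs between chromosomes, with up to 2 genes nearest the middle; other borders, long genes and bins with contact across under 0.8 were picked with their values in view. The members and lists were chosen with earlier results of these data known. A plain mean over the window gave distorted scores beside blank bins, and the ratio to the expected sum was chosen after seeing this. The 0.8 level, the strata, the classes of distance and the sequence windows were also set with the data in view.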

Additional observations from a re-analysis of the deposited data

How the results depend on the processing

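The 10 summary values were recomputed under 18 other settings, 91 values in all. Of these 78 stayed within the SD over 3 chromosomes (for shares of borders, the exact binomial interval), 12 moved beyond it and 1 changed direction. Without the authors' correction, on recovered reads, the border share was 16.6% in pair-free bins (34 of 205) and 31.5% in bins with at least 1 pair (307 of 976), and the score difference from bins with 1 pair was 0.053, against 0.035. On the same reads the contact of pair-free bins with each other over other bin pairs was 0.962 within arms, against 1.004, which is the change of direction, and 1.001 between chromosomes, against 1.06. The median log2 contact with ends was then 0.00, against 0.069, and it was 0.034 with the 5% of bins lowest in reads left out, 0.056 with pairs placed by midpoint and 0.041 with end windows of 10 bins. The border share of bins with at least 1 pair was 22.8% with a 30 kb window, 14.4% with a 100 kb window and 14.3% at a depth of 0.2. At 200 to 1000 kb the contact of pair-free bins with each other over other bin pairs was 1.06. Of 3 settings added after seeing the data, a plain mean over the window gave 13 borders in 205 pair-free bins, all 25 bin pairs in the window gave 8 in 176, and leaving out bins within 100 kb of a blank bin gave 7 in 153. The causes were not tested. No paired analysis was possible because the deposited values form 1 map with no replicate columns and no second group.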
